A study of Mus musculus with 5 samples.

Results

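Chst1, Chst2 and Chst15 encode carbohydrate sulfotransferases, and their transcripts were described over 5 bead arrays of mouse epiblast stem cells, the primed pluripotent cells of the post-implantation embryo. The genes were chosen by measured values, namely the difference of their levels between the array of cells treated with PD0325901 and that of cells treated with CHIR99021, so that difference is a description and carries no test. Each gene has 1 probe, which makes 3 of the 25697 probes on the array and 3 of the 16593 genes that have a named probe. The probes are ILMN_1255385 for Chst1 (NM_023850), ILMN_2687165 for Chst2 (NM_018763) and ILMN_1239627 for Chst15 (NM_029935).

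All 5 cultures were of the epiblast stem cell line E3 (given as of hybrid background on the label of the untreated sample), kept on CF1 feeder fibroblasts that no longer divide, with FGF2 at 5 ng/ml in KSR medium. At semiconfluence the medium was exchanged for 3 h. The untreated culture received KSR medium without supplements, and the labels name no FGF2 in any of the exchanged media. PD received 1 uM PD0325901, an inhibitor of the kinase MEK. CH received 3 uM CHIR99021, an inhibitor of the kinase GSK3, which stabilises beta-catenin. LIF received 1000 U/ml of this cytokine, and PCL received all 3 agents at the same doses. Each condition is 1 culture on 1 array, so no difference between 2 conditions has a replicate check, and the number of arrays limits the precision.

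Carbohydrate sulfotransferases sit in the Golgi and move sulfate from the donor PAPS (phosphoadenosine phosphosulfate) onto sugars of growing glycan chains. Chst1 sulfates galactose of keratan sulfate and related N-acetyllactosamine chains. Chst2 sulfates N-acetylglucosamine of the same kinds of chain, and is known for its part in ligands of L-selectin. Chst15 adds a further sulfate to N-acetylgalactosamine that already carries one in chondroitin sulfate, which gives the highly sulfated E-type units. The pattern of sulfate on such chains is known to set which growth factors they bind at the cell surface.

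The arrays read the agents as follows. Between 10130 and 10981 probes per array were detected at a detection p-value under 0.01, and the 75th percentile of scanner signal, 137 to 153 in the 4 treated cultures, reached 178 in the untreated one. On the log2 scale of normalized intensity, the ERK target Egr1 was -3.68 different from untreated with PD, the beta-catenin target Sp5 was 3.03 different with CH, and the STAT3 target Socs3 was 1.95 different with LIF. These markers also differed with the other single agents. Egr1 was at -0.79 with CH and -1.30 with LIF, Sp5 at -0.24 with PD and 0.85 with LIF, and Socs3 at -0.86 with PD and -0.08 with CH. All 8 epiblast stem cell markers, Pou5f1, Sox2, Nanog, Fgf5, Otx2, Tdgf1, Utf1 and Pou3f1, were detected on every array. Of 11 feeder fibroblast markers with a probe, 6 were detected on at least 1 array (Col1a1, Thy1, Pdgfra, Dcn, Lum and Vim) and Col1a2, Col3a1, Col5a2, Postn and Pdgfrb on 0. The RNA is from the whole culture, so fewer cells of a type and less RNA per cell cannot be told apart.

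The windows around annotated transcription starts of the 3 genes are shown because ERK signalling acts in part through ETS factors and beta-catenin acts through TCF/LEF factors. They are RefSeq sequences of GRCm38.p6 on the strand of the gene, 250 bases before and 50 bases after a start. Capitals mark matches, on either strand, to the ETS motif CNGGAAG, the TCF/LEF motif CTTTGA or the Sp/KLF motif GGGCGGG. For Chst15 the table holds a second, overlapping window, which is not printed.
Chst1, chr2:92600867-92601166, plus strand: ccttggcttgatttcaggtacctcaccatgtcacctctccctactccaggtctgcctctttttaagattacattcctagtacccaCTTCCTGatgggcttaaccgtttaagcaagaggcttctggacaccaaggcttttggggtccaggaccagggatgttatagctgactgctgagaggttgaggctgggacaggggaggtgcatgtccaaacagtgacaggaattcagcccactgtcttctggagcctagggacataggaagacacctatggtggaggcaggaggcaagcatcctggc
Chst2, chr9:95407221-95407520, minus strand: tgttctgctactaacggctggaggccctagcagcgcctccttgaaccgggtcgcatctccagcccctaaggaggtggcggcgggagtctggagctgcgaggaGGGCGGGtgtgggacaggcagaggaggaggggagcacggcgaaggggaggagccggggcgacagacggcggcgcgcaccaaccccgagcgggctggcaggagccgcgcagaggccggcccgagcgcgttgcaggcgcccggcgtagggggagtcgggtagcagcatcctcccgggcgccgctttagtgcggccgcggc
Chst15, chr7:132317179-132317478, minus strand: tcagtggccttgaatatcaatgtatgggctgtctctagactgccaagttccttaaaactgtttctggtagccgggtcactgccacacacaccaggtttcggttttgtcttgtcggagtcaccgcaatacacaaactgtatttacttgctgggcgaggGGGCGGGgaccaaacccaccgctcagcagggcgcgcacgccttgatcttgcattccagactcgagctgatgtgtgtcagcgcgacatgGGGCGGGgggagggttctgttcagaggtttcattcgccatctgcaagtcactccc

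The windows differ in base composition. Chst2 has the highest GC content, 73.0%, with 34 CpG dinucleotides. The Chst1 window has 52.7% GC and 1 CpG, and that of Chst15 has 55.0% and 15, against medians of 52.7% and 7 over 32851 promoter windows. Chst1 holds 1 match to the ETS motif, on the opposite strand at -165 to -159 from the start, a motif found in 31.9% of all windows. Chst2 holds 1 match to the Sp/KLF motif and Chst15 holds 2, a motif found in 25.6% of windows. The letters of the TCF/LEF motif, found in 5257 of the windows, are not in those of the 3 genes. Nor are GCGNGGGCG (EGR, 5.55%), TTCNNNGAA (STAT, 8.30%) and CACGTG (E-box, 7.15%).

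Chst1, the galactose sulfotransferase, was lowest with CH and highest with PD. Its scanner signal, a linear intensity given with the standard error over the beads of the probe, was 954 ± 30.1 untreated, 739.8 ± 21.9 with PD, 450.2 ± 16.02 with CH, 746 ± 27.9 with LIF and 565 ± 19.9 with PCL. These signals exceeded the median of the array's undetected probes by factors of 5.70 to 11.5, and the probe was detected on all 5 arrays. After background correction and quantile normalization its log2 level was 9.37 untreated, 9.66 with PD, 8.78 with CH, 9.40 with LIF and 9.10 with PCL. The order from low to high was CH, PCL, untreated, LIF and PD, and of these neighbours untreated and LIF (0.03 apart, bead-level SE 0.08) did not differ beyond the 95% interval of the bead error.

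Chst1 was 1.85-fold higher on the PD array than on the CH array, a log2 difference of 0.89 ± 0.08 in normalized intensity. Against the untreated array, Chst1 was lower with CH by -0.59 ± 0.08, a 1.51-fold difference, and higher with PD by 0.29 ± 0.07. The untreated array was brighter for most genes. In scanner signal Chst1 was therefore lower with PD than untreated (log2 ratio -0.37), where the median of all tested genes was -0.44, and its higher level with PD holds relative to that shift. With PCL, which joins the agents of both arrays, Chst1 was -0.27 ± 0.08 from untreated, a value between those of PD and CH.

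Chst2, the N-acetylglucosamine sulfotransferase, had the opposite order of PD and CH. Its scanner signal was 195 ± 7.72 untreated, 130.4 ± 5.02 with PD, 217 ± 13.2 with CH, 178 ± 7.04 with LIF and 150.1 ± 6.36 with PCL. The probe was detected on all 5 arrays, at 1.64 to 2.75 times the median of undetected probes. The normalized log2 level was 6.63 untreated, 6.29 with PD, 7.43 with CH, 6.81 with LIF and 6.56 with PCL. CH stood above the next array, LIF, by 0.62 ± 0.15, while PD, PCL, untreated and LIF followed each other in steps within the 95% bead-level interval.

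Chst2 was 2.21-fold lower with PD than with CH, a log2 difference of -1.14 ± 0.16. Relative to untreated it was higher with CH by 0.81 ± 0.15, a 1.75-fold difference, and lower with PD by -0.34 ± 0.14. With PCL it was -0.07 ± 0.14 from untreated and -0.87 ± 0.16 from CH alone. The level with all agents thus lay near those of the untreated and PD arrays and apart from that with CH. The difference between PCL and PD was 0.27 ± 0.15, with a 95% bead-level interval from -0.02 to 0.56.

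Chst15, the enzyme of E-type chondroitin sulfate, was high on both arrays that received PD0325901. Its scanner signal was 149.7 ± 4.91 untreated, 182 ± 6.33 with PD, 143 ± 5.40 with CH, 149.9 ± 5.14 with LIF and 214 ± 8.21 with PCL. These signals were 1.80 to 2.74 times the median of undetected probes, and the probe was detected on all 5 arrays. The normalized log2 level was 6.04 untreated, 7.15 with PD, 6.49 with CH, 6.38 with LIF and 7.36 with PCL. The steps from LIF to CH and from PD to PCL lay within the 95% bead-level interval, and the step of 0.66 ± 0.12 from CH to PD lay beyond it.

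Chst15 was 2.16-fold higher with PD than untreated (log2 difference 1.11 ± 0.11) and 2.50-fold higher with PCL (1.32 ± 0.12). The difference between PCL and PD was 0.21 ± 0.11. PCL exceeded CH by 0.87 ± 0.12 and LIF by 0.98 ± 0.12. The untreated array was the lowest of the 5, since Chst15 was also higher with CH (0.45 ± 0.13) and LIF (0.34 ± 0.12) than untreated. In scanner signal CH and LIF were level with untreated (log2 ratios -0.06 and 0.00), where the medians of all tested genes were -0.39 and -0.26. When the median of the 3 arrays without PD0325901 was the reference, the difference with PD was 0.77, and with the arrays without the agent as reference CH and LIF were at 0.11 and -0.11.

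**Figure D1:**
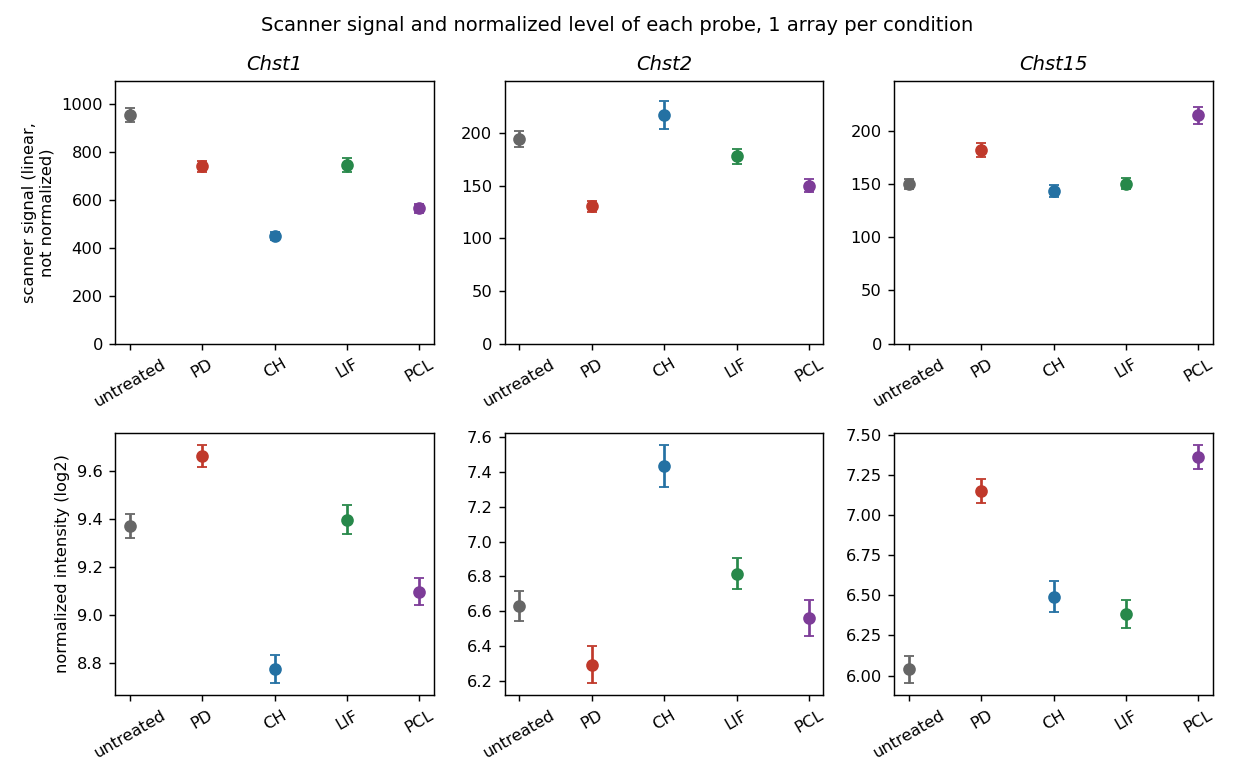
The upper row plots the linear scanner signal and the lower row the normalized log2 intensity of Chst1, Chst2 and Chst15 on each of the 5 arrays, and bars are the bead-level standard error. Chst1 is lowest and Chst2 highest with CH, and Chst15 is highest on the PD and PCL arrays, at 7.15 and 7.36.

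For scale, the share of all detected genes past the same fold is given beside the differences of the 3 genes. Between PD and CH, the contrast that chose them, all 3 differed at least 1.5-fold and Chst2 at least 2-fold, where 5.71% and 0.780% of 7822 detected genes did. For PD against untreated, Chst15 passed both 1.5-fold and 2-fold, as did 5.37% and 0.805% of 7575 genes. For CH against untreated 0 of the 3 passed 2-fold (0.190% of 7882 genes), and Chst1 and Chst2 passed 1.5-fold (2.80%). For PCL against untreated Chst15 passed 2-fold (1.14% of 7792 genes), and Chst1 and Chst2 did not pass 1.5-fold (6.26%). The comparisons with untreated share the untreated array. Those of PD and of CH also use the levels that chose the genes, so they are not independent of the choice. The thresholds were near for several of these values. With an offset of 50 in place of 16, Chst15 was 0.82 from untreated with PD and 0.99 with PCL, Chst1 was at -0.56 with CH, and Chst2 was at -0.88 and Chst15 at 0.51 between PD and CH, each then under the threshold it had passed. The median difference over all genes was between -0.01 and 0.02 in each of the 10 comparisons made among the arrays.

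**Figure D2:**
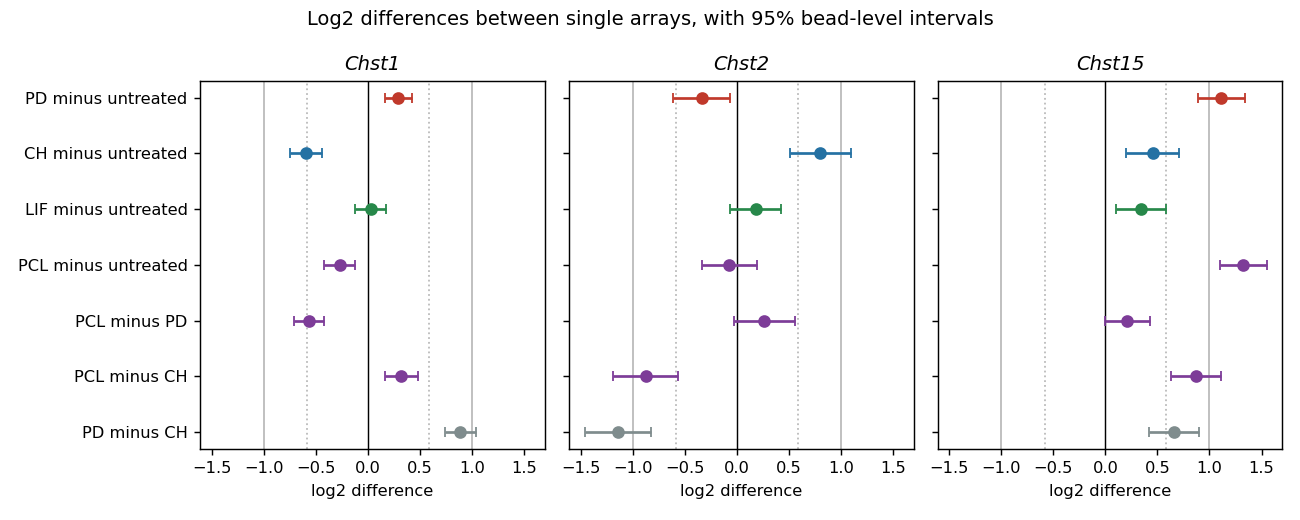
Points are log2 differences of normalized intensity between 2 single arrays for each gene, bars are 95% bead-level intervals, and vertical lines mark 1.5-fold (dotted) and 2-fold (solid). With PCL against untreated, Chst15 is at 1.32 while Chst1 is at -0.27 and Chst2 at -0.07.

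With LIF alone the 3 genes stayed within 1.5-fold of untreated. The differences were 0.03 ± 0.08 for Chst1, 0.18 ± 0.12 for Chst2 and 0.34 ± 0.12 for Chst15, so that 0 of the 3 passed that threshold, which 1.63% of 7838 genes did. The LIF term of an additive limma fit over the 5 arrays does not use the difference between PD and CH and could be tested. Its effects were 0.03 ± 0.12 (SE of the fit) for Chst1, -0.09 ± 0.14 for Chst2 and 0.12 ± 0.14 for Chst15. The fit takes the agents as additive on the log2 scale, so a departure of PCL from their sum also enters the LIF term. The adjusted p-values in limma were 0.986, 0.959 and 0.936 (Benjamini-Hochberg over 8353 genes), where 0.826% of genes passed. The fit has 1 residual degree of freedom, its prior degrees of freedom were infinite, and the arrays are not replicate cultures, so a p that misses the threshold does not show that LIF left these genes alone.

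The combination differed between the 3 genes in how it compared with the single agents. For Chst1 the differences of PD, CH and LIF from untreated summed to -0.27 on the log2 scale, and PCL was at -0.27, a departure of 0.00 ± 0.15. For Chst2 the sum was 0.65 and PCL was at -0.07, a departure of -0.72 ± 0.28. For Chst15 the sum was 1.91 and PCL was at 1.32, a departure of -0.59 ± 0.24. A departure of at least 1.5-fold was seen in 18.2% of 8353 genes and the median size was 0.29, so departures like those of Chst2 and Chst15 were common on these arrays. Both depended on the background correction, without which they were -0.50 for Chst2 and -0.28 for Chst15, under 1.5-fold, and that of Chst15 was -0.38 with an offset of 50. Each departure counts the untreated array with double weight, on which Chst15 was lowest.

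Scanner signal of feeder genes differed between the arrays, as it did for most genes. The summed scanner signal of the 11 feeder fibroblast markers was 4360 untreated, 2830 with PD, 3365 with CH, 3343 with LIF and 3286 with PCL. The median log2 ratio of scanner signal to untreated over all tested genes was -0.44, -0.39, -0.26 and -0.35 for these 4 treatments. After normalization, the median difference of the 6 detected markers from untreated was -0.21 with PD, -0.03 with CH, -0.05 with LIF and 0.00 with PCL. Between PD and CH the median of these 6 was -0.31. Pdgfra was not detected with PD, and against the lowest detected level there its log2 difference had a bound of -0.75, the only one of the 6 past 1.5-fold. Vim and Thy1 were at -0.21 and 0.24. The part of feeder RNA in the differences of the sulfotransferases was not tested.

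Among the other carbohydrate sulfotransferases, most were not detected. Of 15 with a probe, 5 were detected on at least 1 array, and Chst3, Chst5, Chst9, Chst10, Chst11, Chst14, Ust, Gal3st1, Gal3st2 and Gal3st3 were detected on 0. Chst12, which sulfates N-acetylgalactosamine of chondroitin, had normalized log2 levels of 5.45 untreated, 5.82 with PD, 5.16 with CH, 5.41 with LIF and 5.45 with PCL. It was 0.66 ± 0.17 higher with PD than with CH, the same order as Chst1. Chst7, which sulfates N-acetylglucosamine and chondroitin, was at 7.08, 7.30, 7.49, 7.36 and 7.82 in that order of arrays. After normalization every treated array was above untreated, and PCL exceeded it by 0.74 ± 0.10. In scanner signal Chst7 was 243 untreated, 195 with PD, 224 with CH, 232 with LIF and 271 with PCL. Its higher levels with PD, CH and LIF thus hold relative to the brighter untreated array. Chst4 was detected only with CH and Gal3st4 only with PCL, and both were dim there. The bounds were a log2 difference of at least 0.12 for Chst4 between CH and untreated and at least 0.45 for Gal3st4 between PCL and untreated. Between PD and CH, 3 of the list were detected, of which Chst12 was past 1.5-fold higher, Chst7 was at -0.19 and Chst4 had a bound of only -0.03. Over all genes 5.71% passed 1.5-fold in that comparison.

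The heparan sulfate sulfotransferases held the gene with the largest difference between PD and CH among the 7 lists of sulfation genes. Hs6st1 sulfates glucosamine of heparan sulfate, the chain that FGF needs beside its receptor. Its normalized log2 level was 7.19 untreated, 7.91 with PD, 6.80 with CH, 7.58 with LIF and 7.50 with PCL. It was 1.11 ± 0.12 higher with PD than with CH, and 0.72 ± 0.09 higher with PD than untreated, on probe ILMN_3158500. In scanner signal Hs6st1 was 261 with PD and 258 untreated, so its higher level with PD than untreated holds relative to the brighter untreated array. A second probe of the gene was detected on 0 arrays. Hs2st1 (-0.36) and Hs3st1 (-0.45), detected on both arrays, were under 1.5-fold between PD and CH. Hs6st3 was detected with CH only and has no bound. The median of these 4 genes as measured was -0.24, against -0.01 over all genes.

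For the genes that supply PAPS and build the chains, the counts past 1.5-fold were near the share over all genes. That share was 5.71% between PD and CH, and 1.63% (LIF) to 6.26% (PCL) against untreated. Lists this short can therefore hold 0. Of 4 detected genes on the PAPS list, 0 passed 1.5-fold in any comparison with untreated or between PD and CH. They were Papss1, which makes the donor (PD minus CH 0.07 ± 0.08), Slc35b3, which carries it into the Golgi (0.26 ± 0.10), Bpnt1 and Bpnt2. Bpnt1 and Bpnt2 are phosphatases that neither make nor carry PAPS. Papss2 was detected on 0 arrays and Slc35b2 had no probe, so the supply of PAPS was read only in part. Of 8 detected genes of linkage and chondroitin chain synthesis, 0 had a measured difference past 1.5-fold in those comparisons, though B4galt7 and Csgalnact1 were not detected with PD. Of this list, Chsy1, a chondroitin chain polymerase, was at -0.30 ± 0.10 between PD and CH. Of 3 detected genes of keratan and poly-N-acetyllactosamine synthesis, the chains that Chst1 and Chst2 modify, 0 passed either. B3gnt7, which extends such chains, was at -0.44 ± 0.11 between PD and CH. The medians of the 3 lists between PD and CH were -0.04, -0.13 and -0.20.

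Carrier proteins and sulfatases are set beside the same share over all genes, 5.71% past 1.5-fold between PD and CH. Of 14 proteoglycan core proteins detected with PD or CH, 0 passed 1.5-fold, and the median difference was -0.26. Bgn (-0.45), Dcn (-0.41) and Lum (-0.44), small leucine-rich proteoglycans that fibroblasts also make, were lower with PD. Differences of that size were not limited to them. Prelp, dim with PD, was at -0.525, Sdc1 at -0.485 and Cd44 at -0.45, and the highest of the 14 was Agrn at 0.10. Podxl, a sialomucin of pluripotent cells, was at 0.08. Hspg2, the basement membrane proteoglycan perlecan, was -0.67 ± 0.09 from untreated with PD, the only core protein past 1.5-fold against untreated. Every treated array was below untreated for Hspg2, with CH at -0.46, LIF at -0.41 and PCL at -0.42. Between PD and CH it was at -0.21, and between PD and LIF at -0.26. With PD, 5.37% of 7575 genes passed 1.5-fold against untreated. Of 5 detected genes on the list of sulfatases, which also holds the glucuronidase Gusb, 4 were under 1.5-fold between PD and CH. Galns was detected only with CH, and the lowest detected level on the PD array gives no bound for it.

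**Figure D3:**
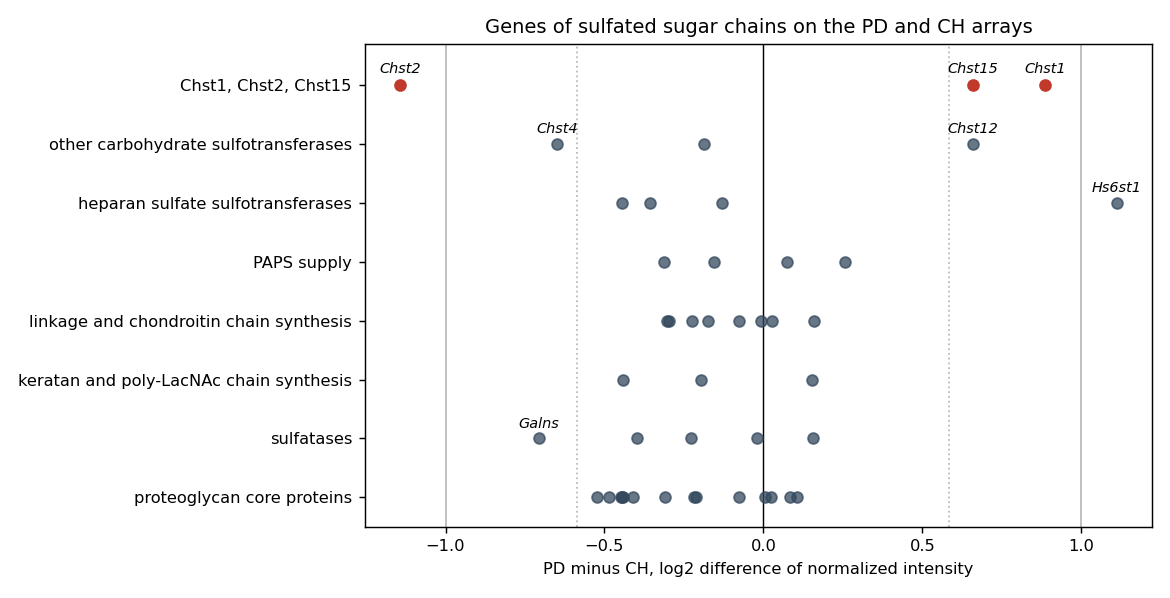
Each point is 1 gene detected on the PD or CH array, placed by its log2 difference of normalized intensity between PD and CH, with vertical lines at 1.5-fold (dotted) and 2-fold (solid). Besides the 3 chosen genes, Hs6st1 (1.11) and Chst12 (0.66, dim on both arrays) lie past 1.5-fold. Chst4 and Galns, as well as Hs6st3, B4galt7 and Csgalnact1, were not detected with PD and are drawn at their measured values, which are not reliable differences.

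The 3 sulfotransferases had patterns unlike each other, which the choice of the genes favoured. They were chosen by their difference between PD and CH, and both arrays enter the distances below. Because that difference has the opposite sign in Chst2, its distances from the other members are a description only. Likeness was measured as the root-mean-square distance between log2 levels over the 5 arrays, each gene centred on its own mean, among 6820 other genes detected on all arrays. The distance was 0.66 between Chst1 and Chst2, 0.56 between Chst1 and Chst15 and 0.75 between Chst2 and Chst15, where the median gene lay at 0.32, 0.41 and 0.51 from Chst1, Chst2 and Chst15. The genes nearest to Chst1 were Cep112 (0.06), the sialyltransferase St6galnac2 (0.09) and Gm527 (0.09). Those nearest to Chst2 were the G-protein subunit Gna14 (0.10), the LIM-domain protein Lmo2 (0.12) and the zinc finger gene Zfp275 (0.16).

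The homeobox genes Irx5 (0.12) and Irx3 (0.13) were nearest to Chst15, followed by the small GTPase Arf2 (0.14). Irx3 had normalized log2 levels of 6.52 untreated, 7.43 with PD, 7.13 with CH, 6.71 with LIF and 7.69 with PCL. Irx5 was at 5.28, 6.05, 5.51, 5.34 and 6.39 in the same order. Both were highest with PCL and next highest with PD. Lmo2 was at 5.65, 5.11, 6.51, 5.67 and 5.69, so that CH stood above the other arrays as it did for Chst2. Several named neighbours were dim. With CH, Gm527 was at 4.82 and Cep112 at 5.25, where the lowest detected level was 4.78. With PD, Lmo2 was at 5.11 and Gna14 at 5.13, where it was 4.98. The distances rest on 5 arrays and the likeness was not tested.

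**Figure D4:**
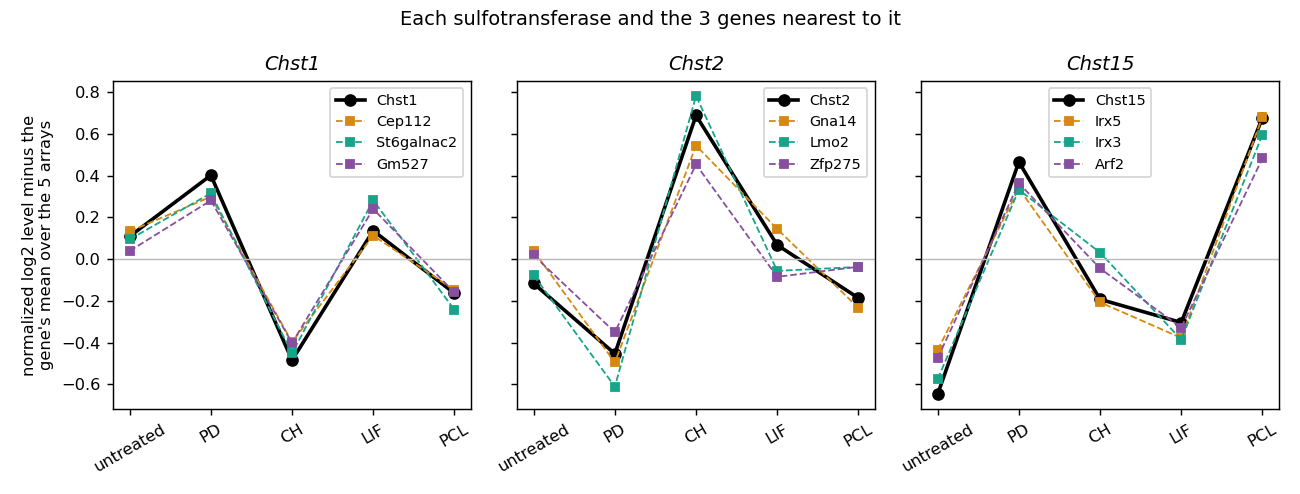
Normalized log2 level minus the mean of the gene over the 5 arrays, for each sulfotransferase (black) and the 3 genes nearest to it, with lines that only join points of the same gene. Chst15, Irx5, Irx3 and Arf2 are all lowest untreated and highest with PCL.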

How the data were processed

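Each of 5 samples has 1 scanner table. Per the file headers it holds an intensity for each probe, a bead-level standard error and a detection p-value. The authors exported the intensity values with BeadStudio, per the submitters' processing notes. A deposited table of processed intensity values, with normalization not given in the sources used here, served as an alternative. In R 4.3.3 with limma 3.58.1, intensities were corrected by normexp using detection p-values (offset 16, which compresses differences of dim genes), quantile normalized and put on the log2 scale. Errors beside differences come from the standard error over beads relative to the corrected signal, and hold no variation between cultures, extracts or hybridisations. Genes were represented by their probe of highest mean. A gene counted for a comparison when detected on at least 1 of its 2 arrays. A gene detected on 1 of them was given as a bound against the lowest detected level on the other. The additive fit (presence of PD, CH and LIF, eBayes with intensity trend) was tested on simulated data. These had additive effects and normal errors of the size the fit had estimated. They cannot check whether the agents are additive on the real arrays or whether the errors are of that size.

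The members and gene lists were chosen with earlier results of these data known. Named genes are the 3 members, their 3 nearest genes each, pathway and cell type markers, and list genes past 1.5-fold. Other list genes were picked as examples after their values were seen. Symbols are those of the platform annotation.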

Additional observations from a re-analysis of the deposited data

How the results depend on the processing

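The signs of the differences between PD and CH were the same under all alternatives tried, from 0.80 to 0.90 for Chst1, from -1.32 to -0.74 for Chst2 and from 0.42 to 0.76 for Chst15. A changed detection limit, a filter on all 5 arrays and a mean over probes could not alter these values. Each gene has 1 probe, detected on every array. The other alternatives process the same arrays anew, on the contrast that chose the genes, so a kept sign is no independent check. Without background correction Chst2 was at -0.74. The number of genes at least 2-fold different between PD and CH was 61, and it was 24 with an offset of 50, 21 without background correction and 130 on the authors' processed values. At 1.5-fold it was 447, and 107, 76 and 257 with an offset of 50, without background correction and among genes detected on all 5 arrays. Against untreated, the genes at least 2-fold different ranged over the alternatives from 24 to 135 for PD (61 as reported), 6 to 46 for CH (15) and 30 to 166 for PCL (89), and those at least 1.5-fold different from 95 to 574 for PD (407), 28 to 410 for CH (221), 11 to 301 for LIF (128) and 146 to 742 for PCL (488). Counts were lowest without background correction. There Chst2 was 0.54 from untreated with CH, under 1.5-fold. The LIF term passed 69 genes, but 28 without the intensity trend, 43 without a filter, and 0 on the authors' values in limma (473 at an unadjusted p under 0.05). The difference of Chst15 with PD from untreated ranged from 0.67 (no background correction) to 1.34 (authors' values), and that with PCL from 0.82 to 1.58. The difference with LIF changed sign for Chst15, to -0.11, with the median of the arrays without the agent as reference, and for Chst1, to -0.06, after scaling to the 75th percentile. The cause of these shifts was not tested. The signal of Chst2 and Chst15, under 3 times the median of undetected probes, limits how well their folds are known. No paired analysis was possible because each group has 1 array.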
